A study of Mus musculus with 6 samples.

Results

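The proteasome genes were compared between the gastrocnemius muscle of young and aged mice. The members were all genes whose symbol begins with Psm, one of the letters a to g and a number, which took in 50 of the 36717 genes or unnamed targets on the array. Of these, 48 encode subunits, regulators or assembly chaperones of the proteasome, and Psmc3ip and Psme3ip1 share the start of the symbol but encode partner proteins. Both groups were male C57BL/6J mice without a treatment or genetic change, 3 at 13 weeks of age (young) and 3 at 26 months (aged). Total RNA of whole muscle from each mouse was labelled with Cy3 and hybridized to 1 single-colour Agilent array.

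The proteasome degrades proteins marked with ubiquitin. Its barrel-shaped core has outer rings of alpha subunits and inner rings of beta subunits, and the protein-cutting sites lie in a few of the beta subunits. A regulatory cap on the end of the barrel binds the ubiquitin chain, removes it and unfolds the protein with a ring of ATPases. In muscle this machine breaks down myofibrillar proteins during atrophy. Interferon-gamma induces 3 alternative beta subunits, which replace the constitutive catalytic ones to form the immunoproteasome, and the PA28 activator, both known for their part in making peptides for antigen presentation.

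The arrays differed in brightness, which was lowest for young mouse 3 and highest for aged mouse 1. The processed signal, the intensity after background subtraction, had a 75th percentile of 243 to 355 in the young group and 321 to 368 in the aged group. From 48.7% to 53.8% of probes stood well above background, with the highest share in aged mouse 1. The 6 arrays were on 1 slide, with the 3 young mice and aged mouse 1 in row 1 and aged mice 2 and 3 in row 2. Values below are log2 signals minus the 75th percentile of the array, so that 0 is that percentile, and differences are aged minus young on the log2 scale. Adjusted p are those of limma after Benjamini-Hochberg correction for 20900 tested genes, and the threshold was 0.05. As the probes differ in brightness, no level of one gene is set against that of another. The RNA came from whole muscle, so that fewer cells of a type and less RNA per cell cannot be told apart.

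None of the proteasome genes differed between young and aged mice at the threshold. A probe had to be well above background on 3 or more arrays to be tested, and 46 of the 48 genes passed. The 2 others were Psma8, a core subunit of the testis, well above background on 0 arrays, and Psmb11, a catalytic subunit of the thymus, well above background on 1. Of the 46 genes, 0 passed the threshold by limma, against 0.254% of all genes tested (0.196% higher and 0.0574% lower in aged mice), and the lowest adjusted p was 0.266, for Psme1. An unadjusted p under 0.05 was found for Psmd10, with a higher mean in aged mice (1 gene, 2.17%, against 6.07% of all genes), and for Psme1 and Psmf1, with a lower mean (2 genes, 4.35%, against 8.38%). The aged mice lay wholly above the young for Psmb3, Psmc2, Psmc4, Psmd1 and Psmd10 (5 genes, 10.9%, against 7.92%) and wholly below for Psmb10, Psme1, Psme4 and Psmf1 (4 genes, 8.7%, against 13.9%), shares not far from those of the whole array.

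Most of the genes had almost the same signal in the 6 mice. The difference between the groups was under 0.2 in either direction for 31 of the 46 genes (67.4%, against 41.9% of all genes). The 95% interval of the difference lay within 0.5 on either side of 0 for 19 genes (41.3%, against 10.4% of all genes), and within 1, that is, without room for a doubling or halving, for 40 (87%, against 66.4%). The 6 genes whose interval reached past 1 were Psmb1, Psmb2, Psmc5, Psmd11, Psmd14 and Psme1. The median SD within groups was 0.17 for the proteasome genes and 0.28 for all genes. Bright probes vary less in general, and the shares above were not set against genes of like signal or counted at another scaling. The middle range of the proteasome genes was a mean signal between 3.11 and 6.96. Over the 4409 genes in this range the median SD was 0.21, against 0.18 for the 22 proteasome genes among them.

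The median difference was 0.09 over the 46 genes and -0.06 over all genes tested. The mean was higher in aged mice for 33 of the 46 (71.7%, against 43.1% of all genes), but this split follows the scaling, and with arrays scaled to their median, which moves every difference by -0.15, it was 14 of 46. Relative to the median of all genes the proteasome genes lay higher by 0.15, with 36 of 46 above it, which this change of scaling cannot alter. The distance was 0.23 after quantile normalization and 0.05 without the filter on dim probes. By role and at the 75th percentile, the median difference was 0.08 for 14 constitutive core subunits, 0.11 for 17 cap subunits and -0.04 for the 3 immunoproteasome subunits, all of them below 0 with arrays scaled to their median.

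**Figure D1:**
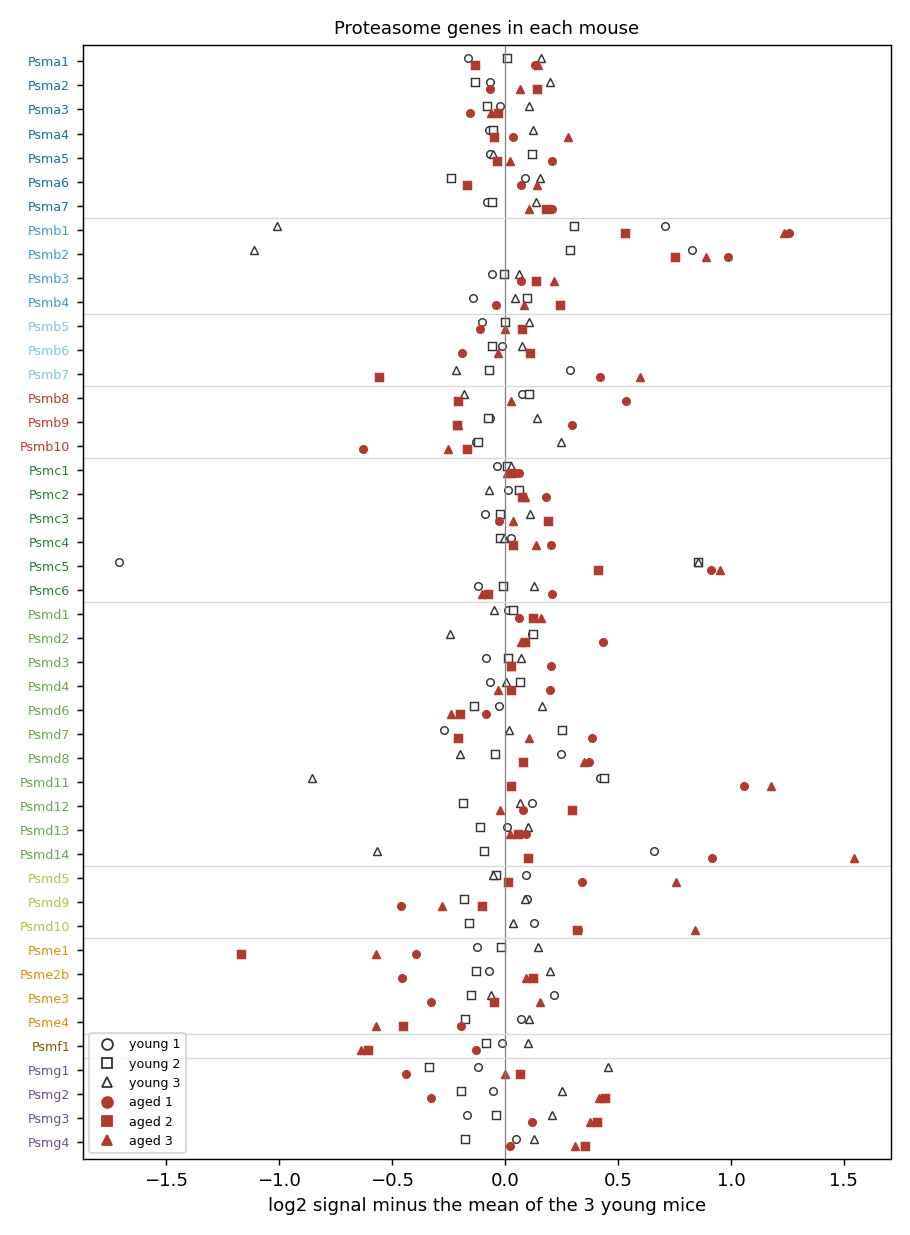
Signal of the 46 proteasome genes tested in each mouse. The x axis is the log2 signal minus the mean of the 3 young mice, open symbols are young and filled symbols aged mice, and gene names are coloured by role. Most genes cluster close to 0 in all mice, whereas Psmb1, Psmb2 and Psmd11 are low in young mouse 3 and Psmc5 is low in young mouse 1.

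The 7 alpha subunits tested, which form the gate through which proteins enter the core, differed by -0.08 to 0.16. The mean was higher in aged mice for 6 and lower for 1, or higher only for Psma7 with arrays scaled to their median, and 0 passed the threshold. The largest was that of Psma7 (NM_011969), at 6.29, 6.31 and 6.51 in the young mice numbered 1 to 3 and 6.57, 6.55 and 6.47 in the aged mice numbered likewise (difference 0.16, standard error 0.15, adjusted p = 0.639 from limma). The highest young mouse lay within the aged group. The lowest was that of Psma3 (NM_011184), at 7.63, 7.57 and 7.76 in young and 7.50, 7.63 and 7.59 in aged mice (-0.08, adjusted p = 0.820 from limma), and these groups overlapped too.

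The beta subunits without a catalytic site, Psmb1 to Psmb4, held both steady and widely varying probes. Psmb3 was 7.43, 7.49 and 7.55 in young and 7.56, 7.63 and 7.71 in aged mice. The groups did not overlap, but the difference of 0.14 was small beside the error of the model (standard error 0.15, adjusted p = 0.678 from limma). Psmb4 differed by 0.10 with overlapping groups, and both differences fall to or below 0 with arrays scaled to their median. Psmb1 (NM_011185) was 5.61, 5.20 and 3.89 in young and 6.16, 5.43 and 6.14 in aged mice, a difference of 1.01 (standard error 0.46, adjusted p = 0.377 from limma). Young mouse 3 stood below the rest, young mouse 1 lay above aged mouse 2, and without young mouse 3 the difference was 0.50. Psmb2 had the same low mouse, with 2.36, 1.81 and 0.41 in young and 2.52, 2.28 and 2.42 in aged mice, a difference of 0.88 (adjusted p = 0.435 from limma) that was 0.32 without young mouse 3.

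The 3 catalytic subunits of the constitutive core, which carry the active-site threonine, did not differ beyond the spread between mice. Psmb5 (NM_011186), with the chymotrypsin-like activity, was 8.35, 8.45 and 8.56 in young and 8.34, 8.53 and 8.45 in aged mice, a fold of 0.991 with a 95% interval of 0.771 to 1.27. Psmb6 (NM_008946), with the caspase-like activity, was 7.69, 7.65 and 7.78 in young and 7.52, 7.81 and 7.68 in aged mice, a fold of 0.975 with an interval of 0.752 to 1.26. The values of these genes in young and aged mice interleave. Psmb7 (NM_011187), with the trypsin-like activity, varied more, at 5.26, 4.91 and 4.76 in young and 5.40, 4.42 and 5.57 in aged mice, where aged mouse 2 was the lowest of all 6 (difference 0.15, interval -0.63 to 0.93).

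Of the immunoproteasome subunits, Psmb8 had a higher and Psmb9 and Psmb10 a lower mean in aged mice, and 0 passed the threshold. Psmb8 (NM_010724), which replaces Psmb5, was 1.13, 1.17 and 0.88 in young and 1.59, 0.85 and 1.09 in aged mice. Only aged mouse 1 was above the young mice, and the fold was 1.09 with an interval of 0.744 to 1.58 (adjusted p = 0.834 from limma). Psmb9 (NM_013585), which replaces Psmb6, was 0.30, 0.29 and 0.51 in young and 0.66, 0.15 and 0.15 in aged mice. Again aged mouse 1 was the highest, the other aged mice were the lowest, and the fold was 0.971 with an interval of 0.701 to 1.34. Psmb10 (NM_013640), which replaces Psmb7, was 4.03, 4.04 and 4.40 in young and 3.53, 3.99 and 3.90 in aged mice. All aged mice lay below all young mice, but the difference of -0.35 did not pass the threshold (standard error 0.20, adjusted p = 0.461 from limma). It was -0.21 without aged mouse 1 and kept its sign in all settings tried. Where groups do not overlap, however, leaving out a mouse or fitting slide row or replicate number cannot change the sign. On row 1 of the slide alone, where aged mouse 1 is set against the young mice, the differences of Psmb8, Psmb9 and Psmb10 were 0.54, 0.29 and -0.63.

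Because each immunoproteasome subunit takes the place of 1 constitutive subunit, the 3 pairs were also compared within each array. The intervals given are those of limma, whereas the p are those of a permutation test. The difference between the log2 signals of Psmb8 and Psmb5 was larger in aged mice by 0.13, with a 95% interval of -0.52 to 0.78 (p = 0.8, two-sided exact permutation test). For Psmb9 and Psmb6 the change was -0.01, with an interval of -0.57 to 0.56 (p = 1, exact permutation test). For Psmb10 and Psmb7 it was -0.50, with an interval of -1.50 to 0.49 (p = 0.3, exact permutation test). Adjusted over the 3 pairs, p was 1, 1 and 0.9, and the smallest p that 3 mice against 3 allow is 0.1.

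**Figure D2:**
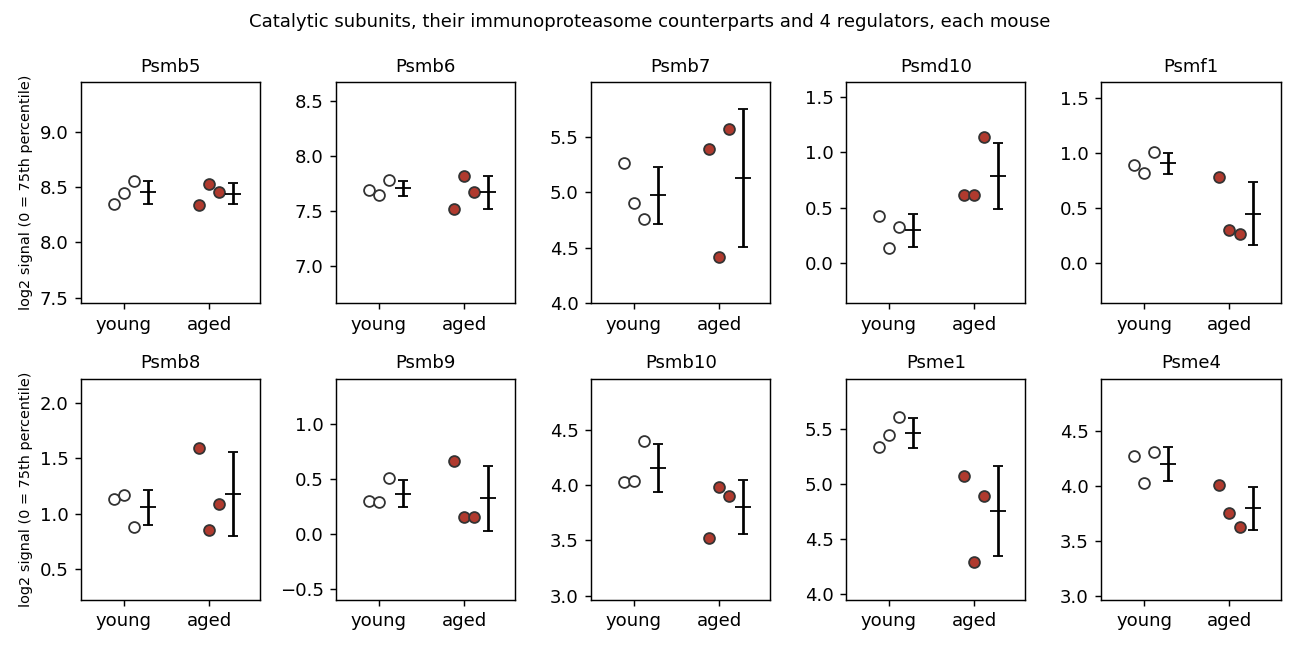
Log2 signal (0 is the 75th percentile of the array) of 10 genes in each young (open circles) and aged mouse (filled circles), with bars for the mean and SD of 3 mice; every panel spans 2 log2 units. Each gene is shown by its brightest probe. The catalytic subunits Psmb5 and Psmb6 overlap between ages, while Psmb10, Psme1, Psme4 and Psmf1 are lower and Psmd10 is higher in every aged than in every young mouse, none of them past the threshold.

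Psmb8, Psmb9, Psmb10 and Psme1 are known targets of interferon signalling, and their promoters are shown beside those of the constitutive Psmb5 and Psmb6, so that the sequences behind the comparison of the pairs can be read. A promoter window of 300 bases, from 250 before to 50 after the transcription start, was held by the RefSeq table of GRCm38.p6 for 40 of the 48 proteasome genes (42 windows). Shown are 280 bases, 5' to 3' on the strand of the gene, of which 250 lie before the transcription start. Capitals mark matches on either strand to the core of the interferon-stimulated response element (a pair of GAAA with 2 bases between), TGACNNNGC (the core of the antioxidant response element, bound by the factors Nfe2l1 and Nfe2l2), an NF-kB site (GGGA and TTCC with 2 bases between) or TTCNNNGAA (the gamma-interferon activation site). No window shown held more than 1 match, and Psmb7 has no entry.
Psmb8 (chr17:34197945-34198224, plus strand): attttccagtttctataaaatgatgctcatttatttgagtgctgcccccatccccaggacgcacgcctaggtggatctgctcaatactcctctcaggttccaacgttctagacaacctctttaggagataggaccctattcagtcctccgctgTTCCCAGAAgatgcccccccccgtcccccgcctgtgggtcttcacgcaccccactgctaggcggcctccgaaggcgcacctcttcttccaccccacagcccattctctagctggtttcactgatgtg
Psmb9 (chr17:34187301-34187580, minus strand): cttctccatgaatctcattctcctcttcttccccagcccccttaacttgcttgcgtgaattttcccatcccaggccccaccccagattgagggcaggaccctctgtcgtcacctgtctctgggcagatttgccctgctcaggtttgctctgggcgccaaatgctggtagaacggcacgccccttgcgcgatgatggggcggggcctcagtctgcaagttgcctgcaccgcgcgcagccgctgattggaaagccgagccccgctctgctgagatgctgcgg
Psmb10 (chr8:105938363-105938642, minus strand): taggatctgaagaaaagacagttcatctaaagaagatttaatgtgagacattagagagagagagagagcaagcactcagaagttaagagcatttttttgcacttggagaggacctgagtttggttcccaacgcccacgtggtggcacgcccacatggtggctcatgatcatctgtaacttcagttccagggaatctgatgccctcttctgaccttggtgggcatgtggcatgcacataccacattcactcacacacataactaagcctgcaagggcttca
Psme1 (chr14:55578244-55578523, plus strand): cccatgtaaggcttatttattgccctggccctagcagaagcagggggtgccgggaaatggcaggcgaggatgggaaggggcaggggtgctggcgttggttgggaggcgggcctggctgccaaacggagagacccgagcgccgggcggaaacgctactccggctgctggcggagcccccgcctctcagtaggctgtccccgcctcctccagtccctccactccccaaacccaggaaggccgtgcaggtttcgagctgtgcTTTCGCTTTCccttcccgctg
Psmb5 (chr14:54617966-54618245, minus strand): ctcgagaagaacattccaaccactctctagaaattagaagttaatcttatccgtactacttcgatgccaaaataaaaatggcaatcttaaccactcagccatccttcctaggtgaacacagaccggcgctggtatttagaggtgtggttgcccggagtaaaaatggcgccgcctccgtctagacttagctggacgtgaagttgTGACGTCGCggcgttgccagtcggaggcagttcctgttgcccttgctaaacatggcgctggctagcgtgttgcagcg
Psmb6 (chr11:70525107-70525386, plus strand): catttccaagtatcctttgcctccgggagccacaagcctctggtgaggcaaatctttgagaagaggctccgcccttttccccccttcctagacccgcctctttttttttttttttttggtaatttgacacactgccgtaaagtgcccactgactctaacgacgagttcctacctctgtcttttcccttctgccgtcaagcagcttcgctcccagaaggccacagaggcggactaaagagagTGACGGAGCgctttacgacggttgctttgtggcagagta
Psme1 held the interferon-stimulated response element core on the opposite strand at bases 10 to 19 after the start, and Psmb8 held TTCNNNGAA at bases -97 to -89. The constitutive Psmb5 and Psmb6 held TGACNNNGC at bases -47 to -39 and -9 to -1. In full windows the interferon-stimulated response element core was found in 5 of the 42 (11.9%, against 3.44% of all 32851 promoters), TGACNNNGC in 6 (14.3%, against 12.4%), TTCNNNGAA in 3 (7.14%, against 8.3%) and the NF-kB site in 1 (2.38%, against 1.47%). CCAAT, a general promoter motif not marked above, was found in 14 (33.3%, against 37.4%). The 5 genes with the interferon-stimulated response element core were Psmb3, Psmd4, Psmd9, Psme1 and Psmg4, whose differences with age went from -0.71 for Psme1 to 0.23 for Psmg4.

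Other genes of antigen presentation and interferon response were listed to set beside the immunoproteasome, and 16 of 17 could be tested. The mean was higher in aged mice for 8 and lower for 8, with a median difference of -0.03, and 0 passed the threshold. Interferon-gamma itself (Ifng) was well above background on 0 arrays. The lowest p were those of Gbp3, Gbp2 and Ifngr2, all lower in aged mice. Gbp3, an interferon-induced GTPase, was 0.06, -0.20 and 0.44 in young and -0.44, -0.67 and -0.89 in aged mice (difference -0.77, adjusted p = 0.224 from limma), and Gbp2 of the same family differed by -0.60 (adjusted p = 0.271 from limma). Ifngr2, a chain of the interferon-gamma receptor, differed by -0.44 (adjusted p = 0.286 from limma). For these 3 genes no aged mouse overlapped with a young one. Over the 16 genes, the aged mice lay wholly below the young for 5 (13.9% of all genes) and wholly above for 1 (7.92%).

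Leukocytes carry immunoproteasomes, and markers of leukocytes and other cells were read beside them. Of 11 macrophage markers 10 were tested, the mean of 8 was higher in aged mice, and 5 had a higher mean with an unadjusted p under 0.05 (6.07% of all genes), with a median difference of 0.83 and 0 genes past the threshold (lowest adjusted p = 0.0633 from limma, for Fcgr1). For 5 of the 10 the aged mice lay wholly above the young (7.92% of all genes). Both sets of 5 include Fcgr1, which only just met the filter, well above background on 3 arrays. It was -4.66, -4.55 and -4.35 in young and -3.15, -3.08 and -2.45 in aged mice. A marker that passes the filter through the aged group alone would be no support, so its p is read with doubt. Ptprc, in the set by unadjusted p, was well above background on 5 arrays. The median of the 10 markers, each taken from its mean in young mice, was 0.039, -0.014 and -0.0096 in young and 0.997, 0.478 and 0.990 in aged mice. Their summed level, in multiples of the 75th percentile, was 39.3 to 46.1 in young and 42.8 to 45.4 in aged mice, but such sums weight each probe by its brightness, and this one is led by Itgam and Csf1r, the markers with a lower mean in aged mice. Cd163 was well above background on 0 arrays. Of 13 lymphocyte markers 5 were tested, all 5 lower on average (median -0.19), with a summed level of 6.86 to 7.76 in young and 5.51 to 6.99 in aged mice. Among the lymphocyte markers not tested, Cd8a, Cd8b1, Cd3g, Ms4a1 and Klrb1c were well above background on 0 arrays. Of 6 dendritic cell markers 4 were tested, 2 higher and 2 lower, at 0.361 to 0.594 in young and 0.653 to 0.779 in aged mice in sum. These sums are of dim probes, with Itgax well above background on 4 arrays and Flt3 on 3. The 2 with a higher mean were Itgax, whose lowest value was -4.96 in young mouse 3, and Cd209a, whose lowest was -3.53 in young mouse 2. The part of these cells in the values of the immunoproteasome was not tested. Of 6 endothelial markers, 2 had a higher and 4 a lower mean in aged mice (median -0.34), with a summed level of 32.5 to 37.2 in young and 22.0 to 31.0 in aged mice. Of 10 skeletal muscle markers 9 were tested, 2 higher and 7 lower (median -0.17), with a summed level of 4825 to 5753 in young and 3901 to 5261 in aged mice. Tnni2 was left out because its spots were marked as outliers on the array of aged mouse 3.

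The ATPases of the cap, Psmc1 to Psmc6, unfold the substrate and open the gate of the core. All 6 had a mean higher in aged mice, by 0.01 to 0.76, and 0 passed the threshold; with arrays scaled to their median only Psmc5 stayed above 0. Psmc1 (NM_008947) had the lowest SD within groups by its brightest probe, at 7.73, 7.77 and 7.79 in young and 7.82, 7.79 and 7.77 in aged mice (fold 1.02, interval 0.812 to 1.29), whereas a dimmer probe of the gene differed by 1.11. Psmc2 and Psmc4 did not overlap between the groups, with differences of 0.11 and 0.13 (adjusted p = 0.742 and 0.712 from limma). Psmc5 (NM_008950) was 3.32, 5.88 and 5.88 in young and 5.94, 5.44 and 5.98 in aged mice. Its difference of 0.76 rested on young mouse 1 alone, and without this mouse it was -0.10.

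The other cap subunits include the ubiquitin receptors Psmd2 and Psmd4, the scaffold of the lid and the deubiquitinase Psmd14. Of 11 tested, 10 had a mean higher in aged mice, or 4 with arrays scaled to their median, and 0 passed the threshold, with a median difference of 0.11. Psmd14 (NM_021526), which cleaves the ubiquitin chain from the substrate, was 2.24, 1.48 and 1.01 in young and 2.50, 1.68 and 3.12 in aged mice. The groups overlapped, and the difference of 0.85 had a standard error of 0.44 (adjusted p = 0.426 from limma) and was 0.51 without aged mouse 3. Psmd11 was 3.70, 3.72 and 2.43 in young and 4.34, 3.31 and 4.46 in aged mice, a difference of 0.75 that was 0.33 without young mouse 3. Psmd6, a subunit of the lid, was the one with a lower mean in aged mice, at 5.91, 5.80 and 6.10 in young and 5.85, 5.73 and 5.70 in aged mice (-0.17, adjusted p = 0.639 from limma), with aged mouse 1 above young mouse 2. Psmd1, a scaffold of the base, had groups that did not overlap at a difference of 0.11. Psmd2, Psmd3, Psmd4, Psmd7, Psmd8, Psmd12 and Psmd13 differed by 0.06 to 0.27 with overlapping groups.

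The low values of young mouse 3 recurred among the widely varying probes. Of the 46 genes, 6 had an SD within groups over 0.4 (13%, against 28.5% of all genes), namely Psmc5, Psmb2, Psmb1, Psmd11, Psmd14 and Psmb7. Young mouse 3 was the lowest of the 6 mice for 4 of them, Psmb1, Psmb2, Psmd11 and Psmd14. This was not confined to proteasome genes. The same mouse was also the lowest for the cell markers Mylpf, Pecam1, Tek and Lyz2, but the highest for Ckm. The array of this mouse had the lowest 75th percentile, at 243, and whether this bears on these probes was not tested. Leaving this mouse out, 0 proteasome genes passed the threshold.

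Chaperones that assemble the cap base, Psmd5, Psmd9 and Psmd10, are not part of the finished proteasome. Psmd10 (NM_016883), also known as gankyrin, was 0.42, 0.13 and 0.33 in young and 0.62, 0.61 and 1.14 in aged mice. By its brightest probe every aged mouse was above every young mouse, but a dimmer probe did not separate the groups. The difference of 0.50 (standard error 0.20, unadjusted p = 0.0455 and adjusted p = 0.337 from limma) was 0.32 without aged mouse 3. It kept its sign in all settings tried, several of which cannot change it where the groups do not overlap. Psmd5 was 1.87, 1.74 and 1.73 in young and 2.12, 1.79 and 2.54 in aged mice (0.37, adjusted p = 0.478 from limma), with aged mouse 2 within the young group and a difference of 0.18 without aged mouse 3. Psmd9 was 1.83, 1.54 and 1.81 in young and 1.27, 1.63 and 1.45 in aged mice, a difference of -0.28 (adjusted p = 0.497 from limma) with overlapping groups.

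Chaperones that assemble the core, Psmg1 to Psmg4, differed by -0.12 to 0.30, with 3 higher and 1 lower and 0 past the threshold. The largest difference was that of Psmg3, at 2.61, 2.74 and 2.98 in young and 2.90, 3.18 and 3.15 in aged mice (0.30, adjusted p = 0.475 from limma). Young mouse 3 lay above aged mouse 1. The lowest was that of Psmg1, at 3.98, 3.76 and 4.56 in young and 3.66, 4.16 and 4.10 in aged mice (-0.12, adjusted p = 0.846 from limma), with overlapping groups.

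The lowest differences among the proteasome genes were those of Psme1, Psmf1 and Psme4, which encode activators and an inhibitor of the core. All 4 activators tested had a mean lower in aged mice, with a median of -0.24, and 0 passed the threshold. The signs of Psme2b and Psme3 were not stable, at 0.11 and 0.05 without aged mouse 1, 0.02 for Psme2b without young mouse 3 and 0.03 for Psme3 without young mouse 1. Psme1 (NM_011189), the alpha subunit of the interferon-induced activator PA28, was 5.34, 5.44 and 5.61 in young and 5.07, 4.29 and 4.89 in aged mice. No aged mouse reached the lowest young one, and the fold was 0.611 with a 95% interval of 0.415 to 0.900 for the single gene (difference -0.71, standard error 0.24, unadjusted p = 0.0198 and adjusted p = 0.266 from limma). Aged mouse 2 was the lowest, and without it the difference was -0.48. With 1 of the mice left out or another processing, the difference of Psme1 lay between -0.87 and -0.39, and its adjusted p between 0.148 and 0.613.

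Psme4 (NM_134013), the nuclear activator PA200, was 4.27, 4.03 and 4.31 in young and 4.01, 3.75 and 3.63 in aged mice. The groups were separated by the small step between young mouse 2 and aged mouse 1 (difference -0.41, standard error 0.18, adjusted p = 0.360 from limma), and a second probe differed by -0.55. Psmf1 (NM_212446), which encodes PI31, a protein that inhibits the core in the test tube, was 0.89, 0.82 and 1.01 in young and 0.78, 0.30 and 0.27 in aged mice. Aged mouse 1 was close to the young mice and the others were well below them (difference -0.46, standard error 0.19, adjusted p = 0.346 from limma). On row 1 of the slide alone it was -0.13, and those of Psme4 and Psme1 were -0.19 and -0.39. Psme3, which forms the nuclear PA28 gamma, was 3.08, 2.71 and 2.79 in young and 2.53, 2.81 and 3.01 in aged mice (-0.08, adjusted p = 0.877 from limma), with overlapping groups.

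The beta subunit of PA28 could be read only with doubt. No probe was matched to Psme2, and 3 probes carried the accession of Psme2b (NM_001281472), a copy of Psme2 of near-identical sequence, so that RNA of both genes may be measured. The brightest was 5.02, 4.96 and 5.29 in young and 4.63, 5.21 and 5.18 in aged mice (-0.08, adjusted p = 0.879 from limma). The groups overlapped, and the highest of the differences of the 3 probes was 0.48.

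**Figure D3:**
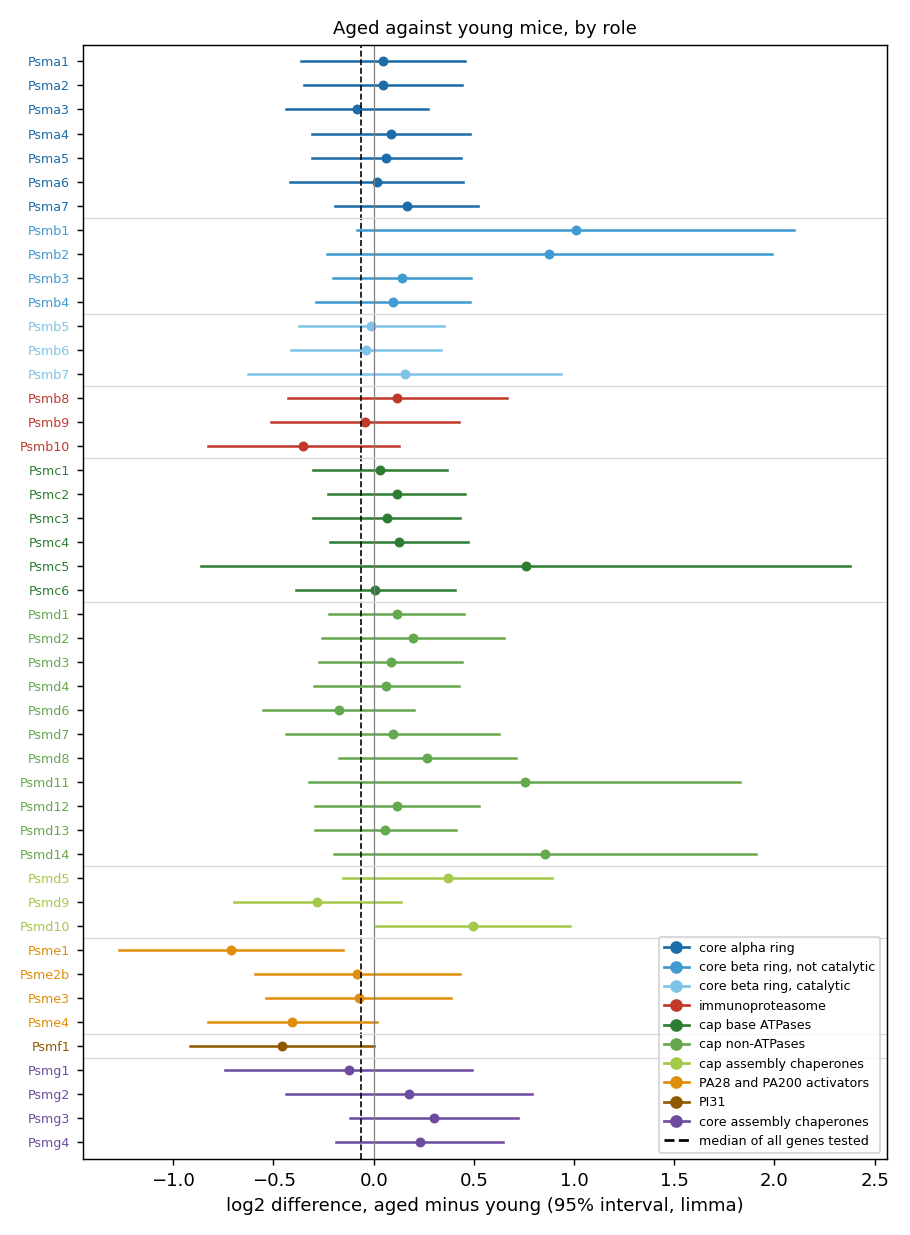
Log2 difference between aged and young mice (x axis, points) with its 95% interval from limma (lines) for the 46 proteasome genes, coloured by role; the dashed line is the median of all genes tested, -0.06. Most core and cap subunits lie close to 0 with narrow intervals at this scaling, Psmb1, Psmb2, Psmb7, Psmc5, Psmd11 and Psmd14 have wide ones, and Psme1 lies lowest at -0.71.

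A second probe gave the same sign for most genes that had one. Of the 11 genes with more than 1 probe, the probes shared their sign for 9 and differed in it for Psmb5 and Psme2b. The probes of Psma4, Psmc2, Psmc3, Psmd12 and Psmg1 differed by under 0.1 from each other. Psmc1 was the exception in size, since a dimmer probe was 2.54, 2.21 and 1.85 in young and 2.42, 3.19 and 4.33 in aged mice. This difference of 1.11, against 0.03 for the brighter probe, was carried by aged mice 2 and 3, and aged mouse 1 was within the young group. The second probe of Psmd10 differed by 0.26, at -0.37, -0.67 and -0.09 in young and -0.79, 0.33 and 0.11 in aged mice. Its groups overlapped, and aged mouse 1 was the lowest of all 6.

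**Figure D4:**
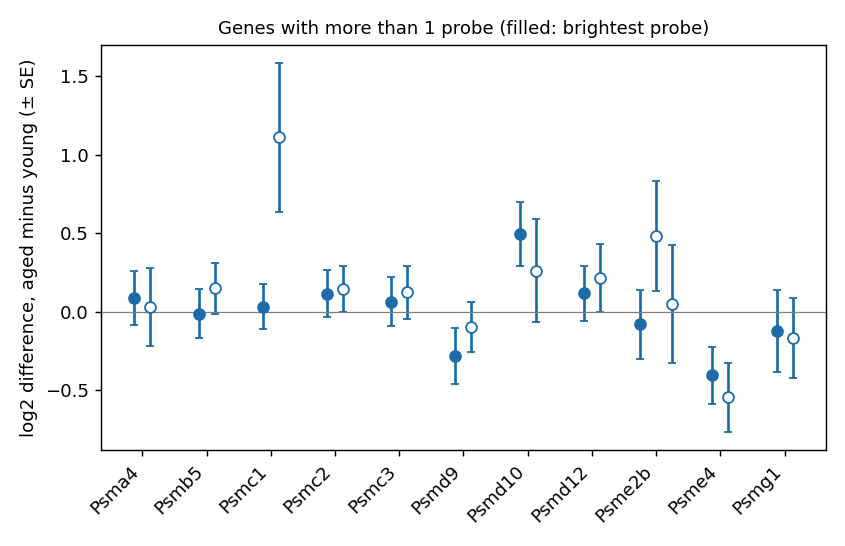
Log2 difference between aged and young mice (y axis, with its standard error from limma) of each probe for the 11 proteasome genes with more than 1 probe, the brightest probe filled. The probes of a gene lie close together except those of Psmc1 (0.03 and 1.11) and Psme2b.

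The partners of the proteasome outside this naming, from ubiquitin and its activating enzyme to shuttle factors, assembly factors and muscle ubiquitin ligases, were all tested, 27 of 27. Of these, 12 had a higher and 15 a lower mean in aged mice, with a median difference of -0.02 and 0 past the threshold. The aged mice lay wholly below the young for 3 of the 27, Sem1, Uchl5 and Vcp (13.9% of all genes), and wholly above for 0 (7.92%). The partners include Adrm1 and Sem1, parts of the cap that were not counted among its 17 subunits above. Adrm1 differed by -0.06 with overlapping groups (adjusted p = 0.909 from limma). Sem1 differed by -0.26 and was below in every aged mouse (adjusted p = 0.516 from limma). The lowest p were those of Uchl5, Vcp and Txnl1. Uchl5, a deubiquitinase bound to the cap, was 4.75, 4.89 and 5.09 in young and 4.49, 4.40 and 4.39 in aged mice, below in every aged mouse (-0.48, adjusted p = 0.267 from limma). Vcp, the ATPase that extracts proteins for degradation, differed by -0.35 (adjusted p = 0.411 from limma) and Txnl1, a thioredoxin-like protein of the cap, by 0.37 (adjusted p = 0.458 from limma). The transcription factor Nfe2l1, known to drive proteasome genes when the proteasome is inhibited, differed by -0.05, and Pomp, which matures the core, by 0.11. Trim63 and Fbxo32, the ubiquitin ligases of muscle atrophy, varied widely between mice, with Trim63 at 7.19, 7.53 and 5.76 in young and 8.43, 6.38 and 7.50 in aged mice.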

How the data were processed

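Gastrocnemius RNA of each mouse was measured on 1 single-colour array. The authors deposited Feature Extraction files (version 11.0.1.1 per the file headers, 9.5 in the submitters' processing notes), in which the processed signal is a linear intensity, background-subtracted and detrended within the array without scaling across arrays. A deposited value table matched it. Of 62976 spots, 59305 were not controls. Outlier spots (161 to 212 per array) were left out, spots of 1 probe averaged on the log2 scale, and each array's 75th percentile subtracted. Accessions were matched without version to RefSeq transcripts of GRCm38.p6, which named 28331 of 55681 probes. Coordinates are given for promoters alone, from RefSeq on GRCm38.p6, and none for probes, as the array was annotated on another build. A gene was represented by its brightest probe among those well above background on 3 or more arrays, leaving 20900. The age groups were compared by a linear model (limma 3.58.1, R 4.3.3), which was tested on simulated data. Intervals are 95% and unadjusted. The members, lists and tests were chosen with earlier results of these data known. Per-mouse values are given for the catalytic pairs, Psme1 and, per role, the largest rise and fall, and for others chosen after their values were seen. The number of arrays limits the precision. The alternatives were another background correction, scaling, filter, probe choice or variance model, the series matrix values, a block for slide row or replicate number, and leaving out each mouse.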

Additional observations from a re-analysis of the deposited data

How the results depend on the processing

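In none of the 18 alternatives did a proteasome gene pass the threshold, and the lowest adjusted p of any was 0.144, for Psmf1 without aged mouse 1. The median difference of the 46 genes was 0.18 after quantile normalization and -0.061 with arrays scaled to their median, where 14 genes were higher in aged mice. Leaving out 1 mouse at a time gave 0.04 to 0.11, with 30 to 38 genes higher. Without the filter, at 36710 genes tested, the distance to the median of all genes fell to 0.05. Of 48 genes, Psmc3ip and Psme3ip1 included, 18 kept their sign in every alternative, among them Psme1, Psme4, Psmf1, Psmb10, Psmd10, Psmb1, Psmb2, Psmd11 and Psmd14. For Psme1, Psme4, Psmf1, Psmb10 and Psmd10, whose groups do not overlap, the fits without a mouse or with a block could not change the sign. The number of all genes past the threshold was 53, but 1 without aged mouse 3, 199 without aged mouse 1 and 8 or 9 without another, 8 unfiltered, 35 with detection required on all 6 arrays, and 5 with a replicate block. The replicate numbers name separate animals. The deviations of mice of the same number correlated at -0.06, -0.27 and 0.03, which does not pair them, and with the replicate block the median of the 46 genes was 0.09 and 0 of them passed. The pairs were recomputed in 12 of the alternatives, in which Psmb10 against Psmb7 kept its sign, at -0.95 to -0.23, whereas Psmb8 against Psmb5 was between -0.13 and 0.34 and Psmb9 against Psmb6 between -0.25 and 0.15. The dimmest probe of a gene in place of the brightest, chosen after seeing the data, gave a median of 0.11. Psmb8 and Psmb9 were well above background on all 6 arrays, but their probes were dimmer than those of most proteasome genes. The background correction counts more for dimmer probes, and with normexp the differences of Psmb8 and Psmb9 were 0.28 and -0.07.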

Other observations

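Psmc3ip and Psme3ip1 match the symbols by name only. Psmc3ip, a partner of the meiotic recombinases, was -1.16, -1.77 and -1.55 in young and -1.38, -1.32 and -1.55 in aged mice (difference 0.08, adjusted p = 0.879 from limma). Psme3ip1, which binds Psme3, was 2.96, 2.88 and 2.95 in young and 3.51, 3.23 and 3.37 in aged mice. Every aged mouse was above every young mouse, and the difference of 0.44 (standard error 0.15, unadjusted p = 0.0241 and adjusted p = 0.285 from limma) did not pass the threshold. It kept its sign in all 18 alternatives, but with such groups the fits without a mouse or with a block could not change it.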
